A study of Mus musculus with 58 samples.

Results

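The interleukin-1 system was examined in adipose stem cells (ASC), with Il1r2, the decoy receptor for interleukin-1, at its centre. Its 9 members, out of 56953 genes in the count table, were the listed genes Il1r2, Il1r1, Il1rap, Il1rn, Il1a, Il1b, Il1rl1, Il33 and Il18, matched by gene symbol. Il1r2 was selected on its measured levels in these libraries, so its values are given as a description with no test, and tests are given for the other members only. The libraries were bulk Smart-seq3 libraries (a full-length cDNA protocol) of cells sorted as CD45-/CD31-/CD34+ from inguinal white adipose tissue (iWAT) of C57BL6/J mice, where DPP4- cells were called ASC1 and DPP4+ cells ASC2. Of the 58 libraries, 7 ASC1 and 8 ASC2 libraries were labelled control male, 8 and 8 castrated male, 8 and 8 control female, and 3 and 8 ovariectomized female. The gonads were removed at the age of 4 weeks, and tissue was taken at 10 weeks of age after a fast of 4 h. The sources used here do not state whether controls had a sham operation.

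Interleukin-1 alpha and beta, encoded by Il1a and Il1b, signal when they bind the receptor encoded by Il1r1, which then recruits the accessory chain encoded by Il1rap. The receptor encoded by Il1r2 binds the same ligands but has no intracellular signalling domain, so it takes up ligand without a signal, and Il1rn encodes an antagonist that occupies the signalling receptor. Related pairs use the same design: Il33 encodes a ligand of the receptor encoded by Il1rl1, which also uses the accessory chain, and Il18 encodes a ligand of the receptor chain encoded by Il18r1. In adipose tissue interleukin-1 is known as an inflammatory signal that hinders adipocyte differentiation, and interleukin-33 from stromal cells is known to support regulatory T cells.

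Il1r2 and Il1rl2, which encodes the receptor for interleukin-36, lie in 1 row of neighbouring protein-coding genes on chromosome 1, in the order Il1r2, Il1r1, Il1rl2, Il1rl1, Il18r1 and Il18rap. Il1r2 and Il1rl2 differed in the same direction between groups, as described below, and the 250 bases before the start of each are therefore shown. Both stretches are from RefSeq on build GRCm38.p6, plus strand, at chr1:40085843-40086092 for Il1r2 and chr1:40324339-40324588 for Il1rl2. Capitals mark CACGTG, the E-box core bound by basic helix-loop-helix factors.
Il1r2: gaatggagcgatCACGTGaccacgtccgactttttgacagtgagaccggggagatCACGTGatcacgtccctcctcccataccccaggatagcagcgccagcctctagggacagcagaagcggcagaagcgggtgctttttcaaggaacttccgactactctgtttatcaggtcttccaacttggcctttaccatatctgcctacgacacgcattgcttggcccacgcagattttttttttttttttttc
Il1rl2: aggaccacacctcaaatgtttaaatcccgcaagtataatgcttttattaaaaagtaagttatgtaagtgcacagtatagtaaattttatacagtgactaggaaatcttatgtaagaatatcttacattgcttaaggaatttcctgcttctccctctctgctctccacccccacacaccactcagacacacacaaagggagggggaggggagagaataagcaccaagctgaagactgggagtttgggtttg
CACGTG, which reads the same on both strands, occurred 2 times before Il1r2 and not before Il1rl2 or any other member. Of 32851 promoter windows of this length, 6.02% held CACGTG at least once and 0.429% held it 2 or more times. TGTTCT, one arm of the element shared by androgen and glucocorticoid receptors, was searched on both strands and was in neither window, while 16.1% of all windows held it. TGANTCA, the AP-1 core, was also in neither, against 6.75% of all windows. These matches describe the letters of the windows and no binding was measured.

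Several libraries stood apart or went against their labels. Total counts ranged from 106566 to 1421547. Xist, transcribed from the inactive X chromosome, and 4 Y-chromosome genes matched the labelled sex in 29 of 58 libraries, when the expected transcripts had to exceed the others 10-fold. All 8 libraries labelled castrated male ASC1 had Xist at 55.3 to 124.7 CPM (read counts scaled to a common library size) and the Y-chromosome genes at no more than 4.78 CPM, against the label, and are called by their label below; each direction given for castration in ASC1 or between the populations of castrated males rests on that label. In the libraries labelled control male, 7 of 15 matched, in those labelled control female 4 of 16, in castrated male ASC2 7 of 8, and in ovariectomized females 11 of 11. Of the control female libraries, 4 ASC1 ones had the male pattern, and 2 ASC1 and 6 ASC2 ones held both kinds of transcript. Of the control male libraries, 1 ASC1 one had the female pattern, and 3 ASC1 and 4 ASC2 ones held both kinds. In contrast, 2 genes known to differ between male and female ASC, chosen after their values were seen, separated the controls by their labels: Sult1e1, an estrogen-inactivating enzyme gene, was at 22.7 to 154 CPM in all 15 control male libraries and at no more than 4.84 CPM in the 16 control female ones, and C7, a complement gene, at 122 to 1664 CPM and at no more than 20.8 CPM. Outside the controls C7 did not follow the labelled sex, with 50.3 to 284.5 CPM in the 3 ovariectomized female ASC1 libraries and 0 to 14.4 CPM in the 8 castrated male ASC1 ones. It was at 0 to 7.26 CPM in the 7 castrated male ASC2 libraries with matching sex transcripts, so low C7 in castrated males does not tell their sex. In the 8 ovariectomized female ASC2 libraries C7 was at 0 to 3.85 CPM. The cause of the mismatch in sex transcripts was not tested. Tcf21, a transcription factor gene known as a marker of visceral rather than subcutaneous fat stroma, was above 5 CPM in 23 libraries, which were 6 castrated ASC1, 6 control female ASC1, 3 control male ASC1, 2 castrated ASC2, 2 control female ASC2 and 4 ovariectomized ASC2 libraries. All libraries are labelled iWAT, and the part of dissection or depot in the values that move with Tcf21 was not tested. Among control libraries with matching sex transcripts, the male ASC1 and female ASC2 ones held Tcf21. The female ASC1 and male ASC2 ones did not, so sex and population cannot be told apart from Tcf21 in that subset. Dpp4, which defined the sort, was at 0.872 to 47.3 CPM in ASC1 and at 49.2 to 489.4 CPM in ASC2. The 3 ovariectomized ASC1 libraries had 43144 to 45105 CPM of 4 fibroblast marker genes, compared with 3024 to 13976 CPM in the other 55 libraries, and 29.7 to 74.3 CPM of 6 macrophage markers, compared with 559 to 6576 CPM. The median log2 fold change of all genes after ovariectomy in ASC1 was -0.341, while the same median was within 0.02 of 0 in the castration, sex and ovariectomized ASC2 comparisons.

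Il1r2 was highest in ASC2 of control males and was lower in the castrated groups of both populations. In control male ASC2 the 8 libraries had 461 CPM at the lowest, 684 CPM at the median and 958 CPM at the highest. In castrated male ASC2 the corresponding levels were 42.2, 84.5 and 135.8 CPM. The 2 groups did not overlap, and the fitted log2 fold change was -3.09 ± 0.31 (SE), with group means of 83.6 ± 33.7 and 698 ± 182 CPM (SD, n = 8 each). In the 7 castrated and 4 control libraries whose sex transcripts matched the label the value was -3.15, and in libraries without Tcf21 it was -2.98. The fibroblast marker sum moved the same way, with a median of 4611 CPM in castrated ASC2 and 9705 CPM in control male ASC2. The sum of 3 ASC2 markers had a median of 152 CPM in castrated and 340 CPM in control male ASC2, with none of the 3 called, and Dpp4 was at 119 ± 54.3 and 236 ± 61.0 CPM (SD, n = 8 each). Markers of other cells moved the other way: 3 of 6 macrophage markers were called higher in castrated ASC2 (median sum 1885 against 807 CPM), as were all 4 tested endothelial markers (76.7 against 24.2 CPM), while 6.96% of all genes were called. The part of these markers in the Il1r2 difference was not tested.

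In ASC1 the 7 control male libraries had 34.7 to 124.4 CPM of Il1r2 with a median of 68.1 CPM, and the 8 libraries labelled castrated male had 0 to 16.2 CPM with a median of 6.87 CPM. The 2 groups did not overlap here either, and the log2 fold change was -3.47 ± 0.40 (SE). One library of the second group had no Il1r2 read, which at its depth allows up to 3.46 CPM (3 counts, counting error only). None of these 8 libraries matched the labelled sex, so no value could be had from matching libraries; in libraries without Tcf21 the log2 fold change was -2.62. Median marker sums in control and castrated male ASC1 were 0.872 and 91.6 CPM for mesothelium and 760 and 1224 CPM for mural (vessel wall) cells. They were 22.2 and 63.9 CPM for ASC2 and 6269 and 5233 CPM for fibroblasts. Cd34, the gene of the sort antigen, was at 289 ± 56.1 and 75.0 ± 62.3 CPM (SD, n = 7 and 8). The part of these markers in the Il1r2 difference was not tested. Il1r2 was lower in both populations, and the difference between the effects, ASC2 minus ASC1, was 0.38 ± 0.48 (SE), which was -0.36 in libraries without Tcf21.

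The ovariectomized groups went in opposite directions in ASC1 and ASC2. In ASC2 of control females Il1r2 was at 125.8 CPM at the lowest, 174 CPM at the median and 643 CPM at the highest, and in ovariectomized ASC2 at 21.4, 69.0 and 103.9 CPM. These ranges did not overlap, with a log2 fold change of -1.86 ± 0.31 (SE), or -1.33 against the 2 control libraries with matching sex transcripts. The sum of 3 ASC2 markers was lower as well, with a median of 134 CPM in ovariectomized and 365 CPM in control female ASC2, and 2 of the 3, Dpp4 and Cd55, were called lower, with Dpp4 at 91.9 ± 30.9 and 248 ± 130 CPM (SD, n = 8 each). All 4 tested mammary epithelium markers were called higher in ovariectomized ASC2, with a median sum of 251 against 16.2 CPM, in a comparison where 2.09% of all genes were called. The median sum of mural markers was 1850 against 402 CPM, with overlap of the ranges, and that of mesothelium markers 16.6 against 0.917 CPM. The part of these markers in the Il1r2 difference was not tested. In ASC1 the 8 control female libraries had 10.9 to 45.9 CPM with a median of 21.7 CPM, whereas the 3 ovariectomized libraries had 138, 167 and 168 CPM, a log2 fold change of 2.85 ± 0.42 (SE). These are the 3 libraries with the high fibroblast marker sum, and the part of their composition in the Il1r2 level was not tested. In such sorted bulk samples a change in the share of cells that express a gene cannot be told apart from a change in RNA per cell.

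Among controls Il1r2 was higher in males than in females, with log2 fold changes of 1.75 ± 0.35 in ASC1 and 1.58 ± 0.28 in ASC2 (SE). The ranges of the sexes overlapped in both populations. Of the sex-matching ASC2 libraries, 4 male libraries had 473 to 958 CPM and 2 female libraries 160 and 170 CPM, while the non-matching ones had 461 to 896 CPM in males and 125.8 to 643 CPM in females. The matching male ASC2 libraries were without Tcf21 and the matching female ones with it. Il1r2 was higher in ASC2 than in ASC1 in control males (3.25 ± 0.32), control females (3.41 ± 0.34) and castrated males (3.63 ± 0.40, all log2 fold change ± SE), with no overlap in any of these. In ovariectomized females the order was inverted, with a log2 fold change of -1.30 ± 0.40 (SE), or -0.68 in libraries without Tcf21.

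Ordered by mean level, control male ASC2 was followed by control female ASC2 with 234 ± 171 CPM (SD, n = 8) and by ovariectomized female ASC1 with 158 ± 17.3 CPM (SD, n = 3). Next came castrated male ASC2, control male ASC1 with 73.1 ± 28.6 CPM (SD, n = 7) and ovariectomized female ASC2 with 67.5 ± 32.8 CPM (SD, n = 8). The lowest were control female ASC1 with 23.3 ± 10.5 CPM and castrated male ASC1 with 6.92 ± 4.48 CPM (SD, n = 8 each). Neighbours in this order overlapped in their ranges, with the exception of ovariectomized ASC1 and castrated ASC2, whose nearest libraries were at 137.7 and 135.8 CPM.

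**Figure D1:**
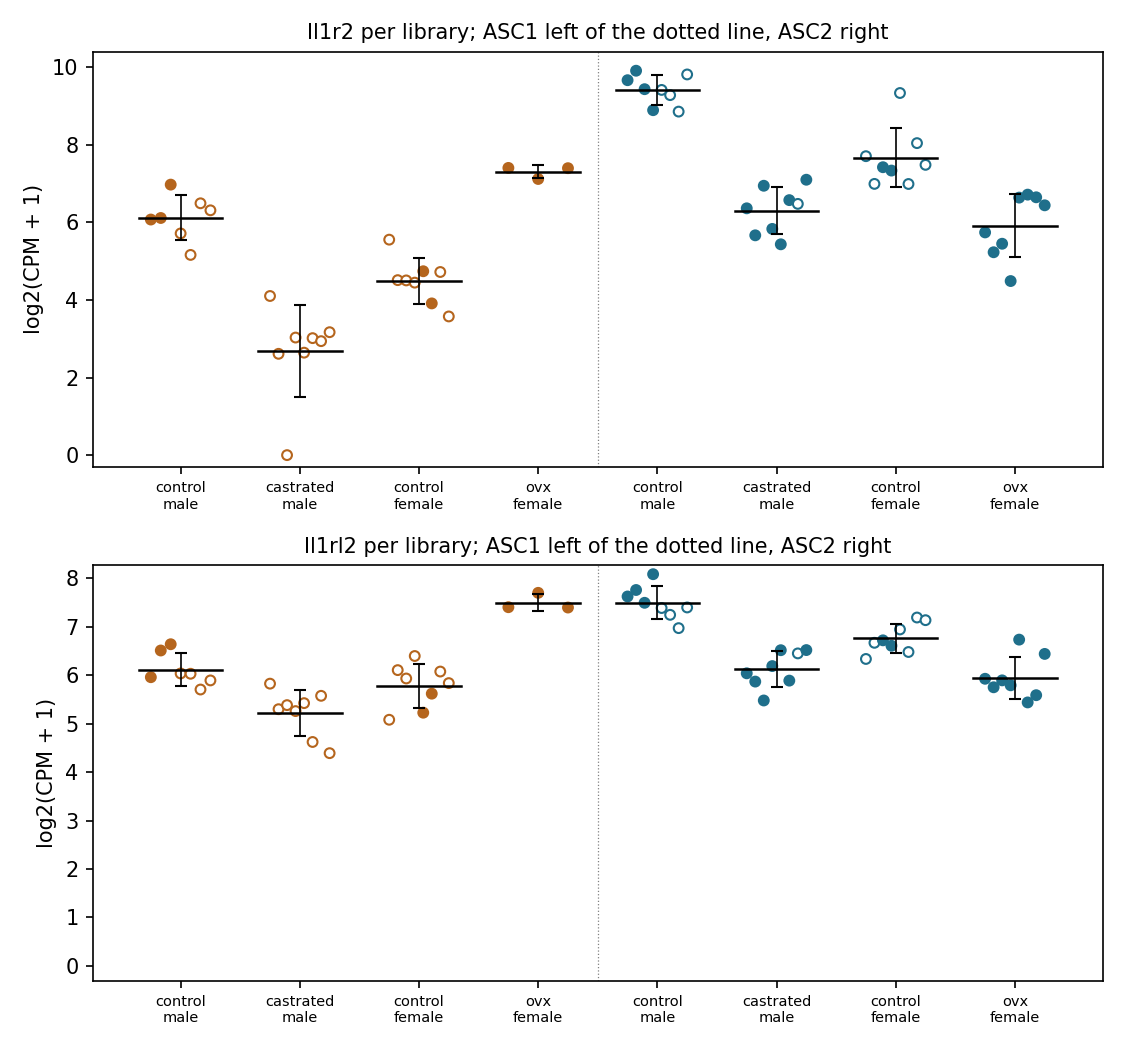
Level of Il1r2 (top) and Il1rl2 (bottom) in each library as log2(CPM + 1), by group, with ASC1 at the left and ASC2 at the right; ovx is ovariectomized. Lines are group means with SD, filled points are libraries whose sex chromosome transcripts matched the label and open points those that did not; the 8 castrated ASC2 libraries of Il1r2 lie below all control male ASC2 libraries.

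Neutrophils are a known source of Il1r2, and the cells were sorted as CD45-, a gate meant to leave them out. Ptprc, the gene of CD45, still had reads, at up to 41.8 CPM in control male ASC1 and 14.5 CPM in control male ASC2. The summed level of 6 neutrophil markers ranged from 0 to 69.7 CPM over all libraries. In control male ASC2, the group with the most Il1r2, the sum was at most 11.0 CPM. There S100a8, Csf3r and Mmp8 had reads, and S100a9, Retnlg and Ly6g had none. Of the 6 markers only Mmp8 was tested, and it was higher in castrated than in control male ASC2, at 16.04 and 4.33 CPM on average (log2 fold change 1.96 ± 0.61, adjusted p = 0.037, edgeR). The part of neutrophil RNA in the Il1r2 levels was not tested.

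Across the 58 libraries, by Pearson correlation of log2(CPM + 1) among 10542 tested genes with a mean of at least 5 CPM, the 5 genes most like Il1r2 were Ecm1 (r = 0.877), Cd34 (r = 0.866), Scara5 (r = 0.866), Fos (r = 0.860) and Dpt (r = 0.859). Cd34 encodes the surface antigen used in the sort, Ecm1 and Dpt (dermatopontin) encode matrix proteins, Scara5 encodes a scavenger receptor and Fos a subunit of AP-1. Within the 26 ASC1 libraries these 5 had r of 0.769 to 0.855, and within the 32 ASC2 libraries 0.777 to 0.840. Il1rl2 ranked 17 with r = 0.804 and Il18 ranked 19 with r = 0.791. The libraries share groups, depth and composition, so these values are descriptions with no p. Dpt, for example, was at 2292 ± 369 CPM in control male ASC2, 2345 ± 1180.3 CPM in control female ASC2, 1292 ± 664 CPM in castrated male ASC2 (SD, n = 8 each) and 5172 ± 255 CPM in ovariectomized ASC1 (SD, n = 3). The order of the groups was not that of Il1r2, since Dpt was higher in ovariectomized ASC1 than in control male ASC2 and near the same level in ASC2 of both control sexes.

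Il1r1, the signalling receptor, varied far less. Its group means lay between 38.5 ± 13.1 CPM in ovariectomized female ASC2 and 83.1 ± 22.5 CPM in control female ASC1 (SD, n = 8 each), and no castration or sex comparison passed the test. Il1r1 passed the test in 1 of 12 comparisons, between the populations of ovariectomized females, where it was lower in ASC2 (log2 fold change -1.20 ± 0.35, adjusted p = 0.0054, edgeR quasi-likelihood test). That call was lost without ovariectomized ASC1 replicate L (-0.93, adjusted p = 0.14) and with a block for the presumed mouse (-0.69, adjusted p = 0.33). Per kilobase of exon, the level of Il1r2 exceeded that of Il1r1 in all 8 control male ASC2 libraries by 23.4 to 77.8 times with a median of 38.4 times. In castrated male ASC2 the median ratio was 6.27 (range 1.87 to 30.2), in control female ASC2 11.5 (6.46 to 70.0) and in ovariectomized ASC2 8.57 (1.81 to 13.3). In ASC1 of control males the median ratio was 3.83, in control females 1.21, in castrated males 0.573, where 1 of 8 libraries had more Il1r2 than Il1r1 per kilobase, and in ovariectomized females 7.60 (7.20 to 11.6). A pair of genes annotated over Il1r2 had 10 reads in all, and Gm38070, on the same strand as Il1r1, had 82 reads against 2509 of Il1r1.

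Il1rap, which encodes the accessory chain, was level among the groups with the exception of ovariectomized ASC1. Means of the other 7 groups lay between 37.9 ± 9.28 and 60.7 ± 19.8 CPM (SD, n = 8 each), and the 3 ovariectomized ASC1 libraries had 6.19, 6.86 and 13.8 CPM. Those 3 lay below all control female ASC1 libraries, of which the lowest had 19.7 CPM. The log2 fold change after ovariectomy in ASC1 was -2.54 ± 0.47 (adjusted p = 2.5e-05, edgeR), and in these ovariectomized females ASC2 was higher than ASC1 (2.46 ± 0.47, adjusted p = 3.9e-05, edgeR). In the 3 comparisons that involve the ovariectomized ASC1 libraries 34.8%, 35.4% and 34.8% of all tested genes were called (ovariectomy in ASC1, population in ovariectomized females, and ovariectomy effect in ASC2 minus ASC1). Of the 7 tested members other than Il1r2, 4 were called after ovariectomy in ASC1, 4 between the populations of ovariectomized females and 5 for the difference of the effects.

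**Figure D2:**
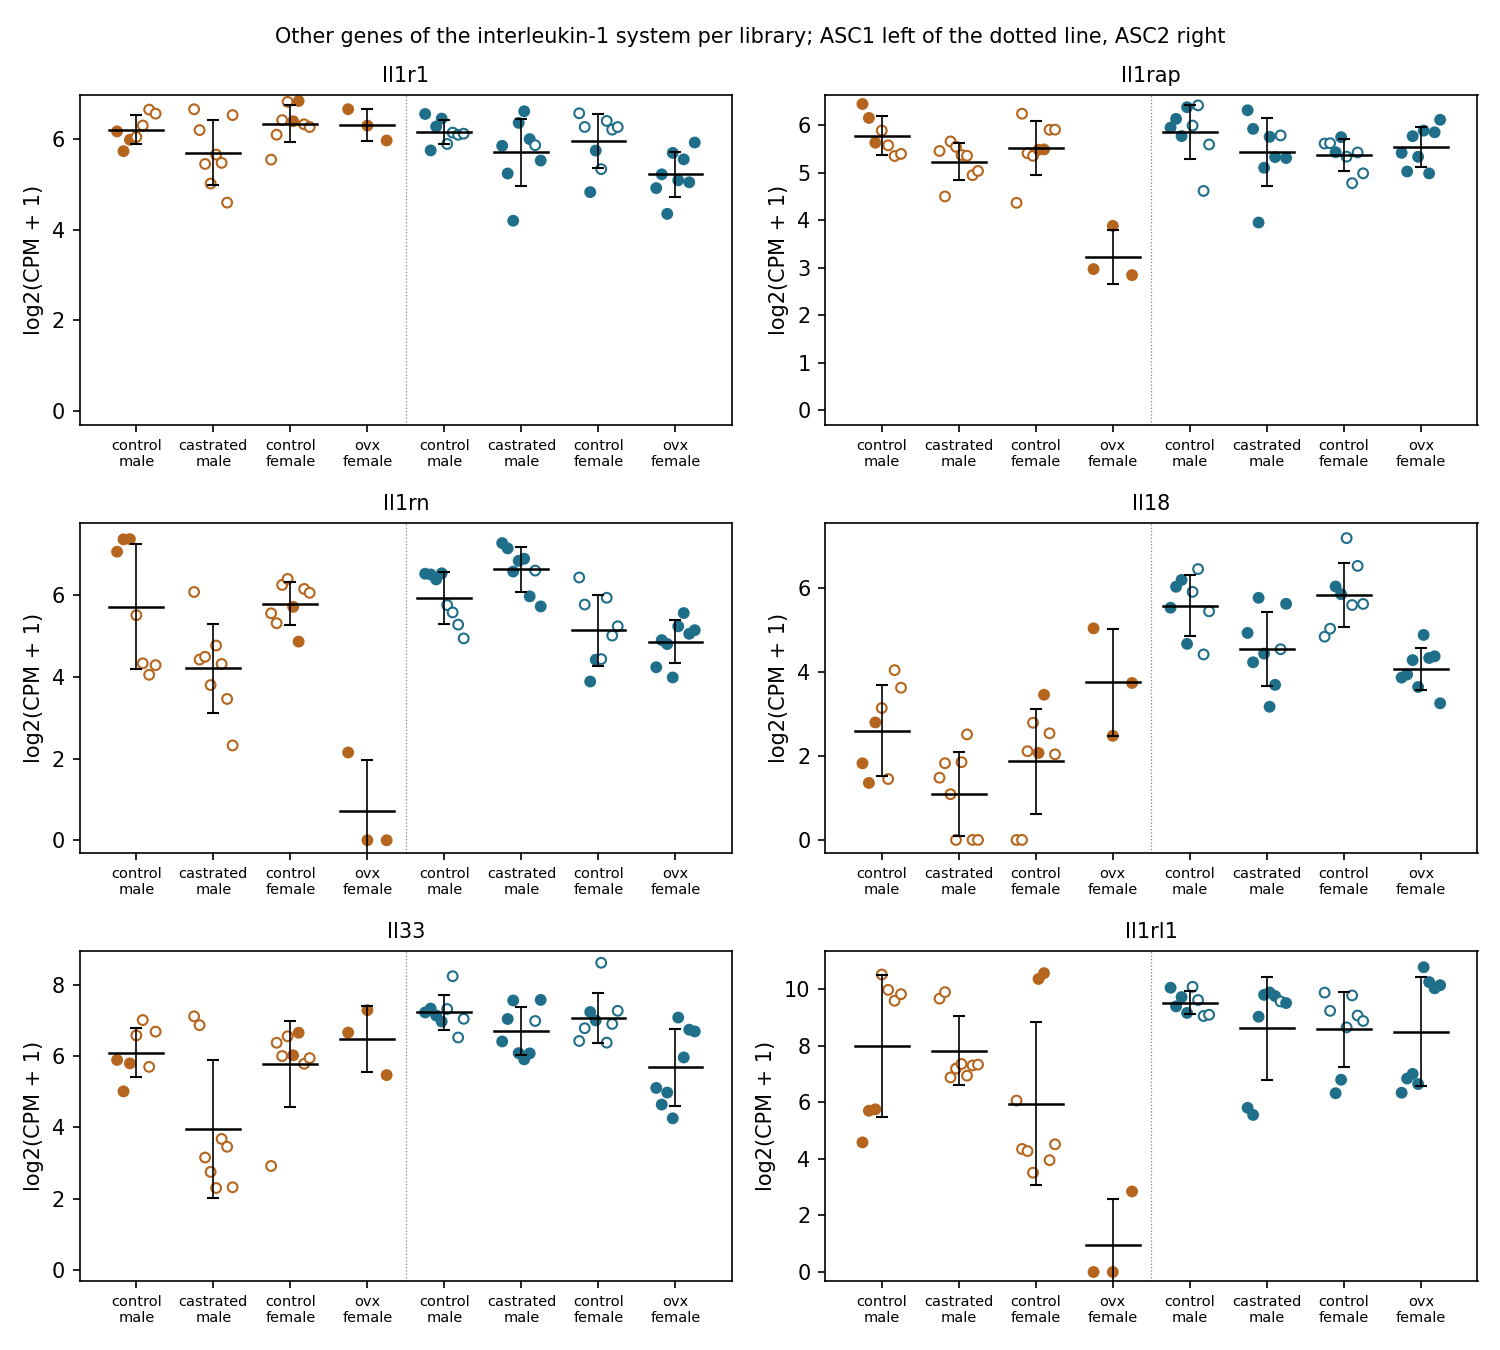
Levels of Il1r1, Il1rap, Il1rn, Il18, Il33 and Il1rl1 in each library as log2(CPM + 1), by group, with ASC1 at the left and ASC2 at the right of each panel; ovx is ovariectomized. Lines are group means with SD and open points are libraries whose sex chromosome transcripts did not match the label; Il18 is higher in ASC2 in 3 of the 4 conditions, and Il1rl1 falls into separate high and low libraries within groups.

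The ligands Il1a and Il1b were close to the limit of detection. Il1a had 59 reads in 24 of 58 libraries, with group means of at most 3.30 CPM, and it passed no comparison. In ovariectomized ASC1 it had 0 of 1559467 counts, which allows up to 1.92 CPM. Il1b had 6 reads in 5 libraries, failed the filter on low counts and was not tested. A difference in either ligand was not detectable at this depth.

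Il18 was the 1 tested member called between ASC2 and ASC1 in control males, control females and castrated males. In control males it was at 52.1 ± 23.1 CPM in ASC2 and 6.66 ± 5.33 CPM in ASC1 (SD, n = 8 and 7), and the libraries did not overlap (log2 fold change 3.01 ± 0.42, adjusted p = 6.7e-07, edgeR). In control females it was at 64.4 ± 38.5 and 3.80 ± 3.26 CPM (SD, n = 8 each; 3.88 ± 0.44, adjusted p = 1.8e-09), and in castrated males at 26.6 ± 16.5 and 1.60 ± 1.67 CPM (3.61 ± 0.52, adjusted p = 1.1e-06), again without overlap. Libraries without Tcf21 kept the direction in all 3, with adjusted p of 0.003 in control males, 0.013 in control females and 0.10 in castrated males. Of all genes 73 were called between the populations of castrated males in that subset. Among all tested genes, 12.2% were called between the populations in control males, 6.11% in control females and 9.09% in castrated males, and of the 7 tested members 1, 1 and 3 were called. In ovariectomized females Il18 was at 16.8 ± 6.20 CPM in ASC2 (SD, n = 8) and at 4.59, 12.4 and 32.0 CPM in the 3 ASC1 libraries, and the populations did not differ by the test.

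Il18 fell after ovariectomy in ASC2, from 27.8 to 145.7 CPM in control females to 8.57 to 28.6 CPM, with an overlap of the ranges at their ends (log2 fold change -1.87 ± 0.36, adjusted p = 0.0013, edgeR). It was the only member called among the 7 tested in that comparison, in which 2.09% of all genes were called. The ASC2 markers were lower and the mammary epithelium markers higher in the same comparison, as given above for Il1r2. Their part in the Il18 difference, or in those of Il1rl2 and Tnfaip6 given below, was not tested. The direction of Il18 was kept in sex-matching libraries (-1.77, adjusted p = 0.42) and in libraries without Tcf21 (-1.60, adjusted p = 0.20), but the call was lost in both. Over all genes 2 and 113 were called in these subsets, against 261 in all libraries. In ovariectomized ASC1 Il18 was higher than in control female ASC1 (2.23 ± 0.62, adjusted p = 0.0039), which rested on replicate L with 32.0 CPM: without that library the log2 fold change was 0.87 with an adjusted p of 0.62. After castration in ASC2 Il18 was not called by edgeR (log2 fold change -1.02 ± 0.34, adjusted p = 0.057) or DESeq2 (adjusted p = 0.063), while it was called by limma voom (-1.19, adjusted p = 0.017) and by edgeR with no count filter (-1.01, adjusted p = 0.048). Bco2 and Tex12, annotated on the other strand at Il18, had 131 reads against 1034 of Il18, and the counting is not stated to use strand.

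**Figure D3:**
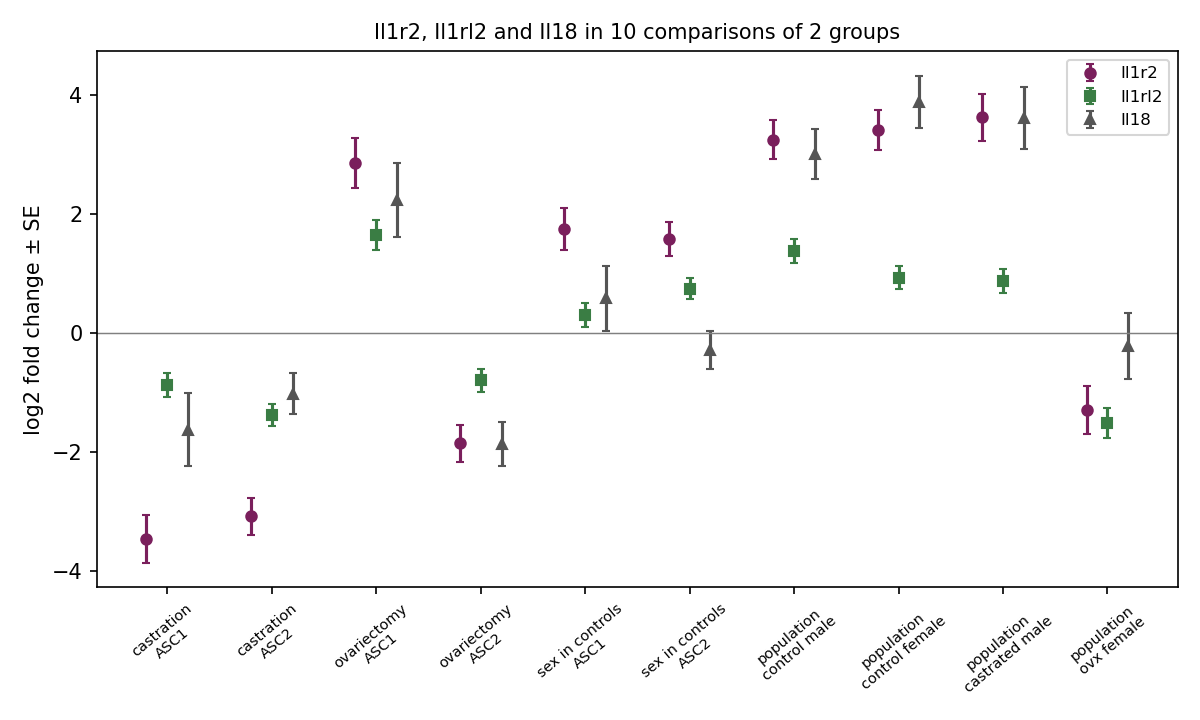
Log2 fold change with SE of Il1r2 (circles), Il1rl2 (squares) and Il18 (triangles) in 10 comparisons of 2 groups; sex is male minus female, population is ASC2 minus ASC1, and ovx is ovariectomized. Il1r2 and Il1rl2 have the same sign in all 10 comparisons, and the values of Il1r2 are a description because it was selected on its levels.

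Il1rn, which encodes the receptor antagonist, differed after castration in ASC1. Control male ASC1 libraries ranged from 15.5 to 164 CPM with a median of 44.5 CPM, and libraries labelled castrated male from 3.99 to 66.4 CPM with a median of 19.7 CPM. The ranges overlapped, and the log2 fold change was -1.77 ± 0.40 (adjusted p = 0.0065, edgeR). It was the 1 member of 7 called in this comparison, in which 2.36% of all genes were called. In ASC2 castrated males had 103 ± 35.3 CPM and control males 65.2 ± 26.1 CPM (SD, n = 8 each), which did not pass, and the effects differed between the populations (ASC2 minus ASC1, 2.46 ± 0.54, adjusted p = 0.0047). For that difference 2.41% of all genes were called, and for castration in ASC2 6.96%, where edgeR and DESeq2 called 0 of the 7 members and limma voom 1, which was Il18, the 1 member with an unadjusted p under 0.05 in edgeR.

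Il1rn was highest in the libraries with the most Lyz2, a macrophage gene. The 5 libraries with Lyz2 above 4000 CPM, a level set after the values were seen, had 132 to 164 CPM of Il1rn, and the other 50 libraries outside ovariectomized ASC1 had 3.99 to 117.5 CPM. Below that level libraries with similar Lyz2 could differ in Il1rn. Control male ASC2 replicate D had 656 CPM of Lyz2 and 91.5 CPM of Il1rn, and control female ASC2 replicate C 687 and 13.8 CPM. The 5 libraries above the level were 3 control male ASC1 and 2 castrated male ASC2 libraries, all of them with Tcf21. In libraries without Tcf21 the castration value in ASC1 turned to 0.71 (adjusted p = 1.0) and the difference of the effects to -0.24. The cells were sorted as CD45-, and the part of macrophage RNA in the Il1rn values was not tested. In the 3 ovariectomized ASC1 libraries Il1rn had 3 reads in all against 286 in control female ASC1, a 32.1-fold difference in reads per total count (95% exact counting interval 10.9 to 156; adjusted p = 0.00017, edgeR). In the same 3 libraries Lyz2 was at no more than 68.1 CPM.

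Il1rl1, which encodes the receptor for interleukin-33, was the most abundant member in reads and split the libraries within groups. The 23 libraries with Tcf21 had 10.4 to 162 CPM with a median of 78.7 CPM, and 32 libraries without Tcf21 had 399 to 1743 CPM with a median of 867 CPM. There was no overlap, in ASC1 or in ASC2. The split ran through 6 of the 8 groups: in control male ASC1, for example, 3 libraries had 22.9 to 52.7 CPM and 4 had 766 to 1458 CPM, and in ovariectomized ASC2 4 had 79.6 to 127 CPM and 4 had a median of 1167 CPM. This division was noticed in the data and has no test. No comparison of castration, sex or population passed for Il1rl1 outside those with ovariectomized ASC1, with an adjusted p of at least 0.56 in those 9. The spread within control male ASC1 was close to the mean (607 ± 570 CPM, SD, n = 7). Within subsets of the libraries 4 of these comparisons were called by edgeR. In sex-matching libraries Il1rl1 was lower in males than in females in ASC1 (-5.02, adjusted p = 0.017, against 0.70 in all libraries). It was higher there in ASC2 than in ASC1 of control males (4.14, adjusted p = 0.0093). In that subset the control male ASC1 libraries held Tcf21, while the female ASC1 and male ASC2 ones did not. Sex and population thus cannot be told apart from the Tcf21 split in these 2 values. In libraries without Tcf21 Il1rl1 was higher after ovariectomy in ASC2 (1.02, adjusted p = 0.036) and lower in ASC2 than in ASC1 of control females (-1.13, adjusted p = 0.041).

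The 3 ovariectomized ASC1 libraries were without Tcf21 and had 1 read of Il1rl1 in all, against 2035 reads in control female ASC1. The ratio of reads per total count was 685-fold with a 95% exact counting interval of 123 to 27054 (adjusted p = 0.0043, edgeR), and it rests on that 1 read. It also rests on control replicates E and F, without Tcf21, which held 1221 and 752 of the 2035 reads. The 6 control libraries with Tcf21 had 10.4 to 65.6 CPM, so the pooled ratio and its interval describe no typical control library. With limma voom the adjusted p for ovariectomy in ASC1 was 0.26, and with edgeR without ovariectomized ASC1 replicate L it was 0.061.

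Il33 encodes the ligand of that receptor and was higher in ASC2 than in ASC1 of castrated males. The ASC2 libraries had 59.3 to 191 CPM with a median of 105 CPM, and the libraries labelled castrated male ASC1 had 3.93 to 138 CPM with a median of 8.95 CPM, with overlap (log2 fold change 1.55 ± 0.47, adjusted p = 0.026, edgeR). The 6 castrated ASC1 libraries with Tcf21 had 3.93 to 11.8 CPM of Il33 and the 2 without it 116 and 138 CPM, and in libraries without Tcf21 the value turned to -0.14. In control males Il33 was at 158 ± 62.9 CPM in ASC2 and 74.5 ± 34.6 CPM in ASC1 (SD, n = 8 and 7), and this did not pass. The ovariectomy effect on Il33 was lower in ASC2 than in ASC1 (-1.92 ± 0.78, adjusted p = 0.048), a call lost without replicate L or N.

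For the sex of the controls, 0 of the 7 tested members were called in either population by edgeR, DESeq2 or limma voom, where 0.289% of all genes were called in ASC1 and 6.5% in ASC2. At an unadjusted p under 0.05, edgeR gave 0 members in ASC1 and 1, Il1rap, in ASC2. In the 7 control male and 4 control female libraries with matching sex transcripts, edgeR called Il1rn higher in males. The values were 1.898 in ASC1 (adjusted p = 0.021) and 2.39 in ASC2 (adjusted p = 0.0035). Il1rl1 was called lower in males in ASC1, as given above. In this subset the male ASC1 and female ASC2 libraries held Tcf21 and the others did not, so sex cannot be told apart from Tcf21. Its male ASC1 libraries were also ones with Lyz2 above 4000 CPM. Il18r1, which encodes a receptor chain for interleukin-18, was called in ASC2, but it was at 3.74 CPM on average in males and 0.159 CPM in females, near the limit of detection.

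Il1rl2, which was not a member, followed Il1r2 in direction. It is described because of this likeness, seen in the same libraries, so its adjusted p-values carry that selection and are no independent test. After castration Il1rl2 fell in ASC2 from 184 ± 44.4 to 70.3 ± 17.5 CPM (SD, n = 8 each) without overlap, a log2 fold change of -1.39 ± 0.19 (adjusted p = 7.4e-07, edgeR). In ASC1 it was at 69.7 ± 17.6 CPM in control males and at 37.99 ± 11.6 CPM in the libraries labelled castrated male (SD, n = 7 and 8; -0.88 ± 0.20, adjusted p = 0.0078). It was lower after ovariectomy in ASC2 (-0.80 ± 0.19, adjusted p = 0.012), while ovariectomized ASC1 libraries had 167, 168 and 207 CPM against 32.8 to 83.1 CPM in control female ASC1 (1.65 ± 0.25, adjusted p = 4.6e-07). It was higher in males than in females in ASC2 (0.75 ± 0.18, adjusted p = 0.0065) and not by the test in ASC1. ASC2 exceeded ASC1 in control males (1.38 ± 0.19), control females (0.93 ± 0.19) and castrated males (0.87 ± 0.20), and ASC1 exceeded ASC2 in ovariectomized females (-1.52 ± 0.25), all with an adjusted p of at most 0.0022. The ASC2 castration call held in sex-matching libraries (-1.65, adjusted p = 3.0e-05) and without Tcf21 (-1.32, adjusted p = 0.00011), whereas the ASC1 call was lost without Tcf21 (-0.36). In that ASC1 comparison without Tcf21, 0 of all genes were called, against 294 in all libraries. The call for ovariectomy in ASC2 was lost in sex-matching libraries and without Tcf21, with values of -0.65 and -0.67. Over all genes 2 and 113 were called there, against 261 in all libraries. In sex-matching libraries the calls were also lost for sex in ASC2 (1.10, adjusted p = 0.065) and for the population in control females (1.23, adjusted p = 0.13), and without Tcf21 for the population in castrated males (0.65, adjusted p = 0.63). Of all genes 326, 134 and 73 were called in these, against 810, 762 and 1133 in all libraries. The comparisons share groups, so the agreement in sign between Il1r2 and Il1rl2 is not independent between them.

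Downstream of the receptors, the lists were counted in the 9 comparisons without ovariectomized ASC1, in which 0.289% to 12.2% of all genes were called. Of 12 receptor-proximal signalling genes (such as adaptors, kinases and ubiquitin ligases) none was called in the 9, and of 11 NF-kB genes, 6 tested ligand-processing genes and 5 receptor-shedding genes the calls were 4, 2 and 1 over the same 9, shares that are not read as a result about these lists. Nfkbia, the inhibitor that NF-kB itself induces, accounted for 3 of the 4 and was higher in ASC2 than in ASC1 in control females (1.38 ± 0.29, adjusted p = 0.00072) and castrated males (1.26 ± 0.30, adjusted p = 0.0027, edgeR). With ovariectomized ASC1 included, 6 of the 12 signalling genes were called after ovariectomy in ASC1, 3 in each direction, beside a background of 34.8%.

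Of 22 tested genes known to respond to interleukin-1, 4 were called after castration in ASC2 (1 higher, 3 lower), where 6.96% of all genes were called, with a median log2 fold change of -0.29 against 0.004 for all genes. Tnfaip6, a hyaluronan-binding protein gene, fell from 212 to 96.2 CPM on average (-1.15 ± 0.31, adjusted p = 0.016), Cxcl1, a neutrophil chemokine gene, from 83.1 to 34.2 CPM (-1.32 ± 0.41, adjusted p = 0.039), and Has2, a hyaluronan synthase gene, from 19.1 to 6.71 CPM (-1.54 ± 0.48, adjusted p = 0.038). Cxcl5, a chemokine gene of the same family as Cxcl1, rose from 0.692 to 8.16 CPM (2.85 ± 0.75, adjusted p = 0.013). In sex-matching libraries and in those without Tcf21 Cxcl5 was called, and Tnfaip6, Cxcl1 and Has2 kept their direction with adjusted p of 0.070 to 0.33. Between control male ASC1 and the libraries labelled castrated male ASC1, 1 of the 22 was called beside 2.36% of all genes: Steap4, a metalloreductase gene, at 129 and 35.8 CPM (-1.83 ± 0.32, adjusted p = 0.0002) without overlap. After ovariectomy in ASC2, where 2.09% of all genes were called, Tnfaip6 fell (-1.44 ± 0.33, adjusted p = 0.006) and Mmp10, a metalloproteinase gene, rose (1.51 ± 0.38, adjusted p = 0.02).

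Between the populations, 7 of the 22 response genes were called in control males (12.2% of all genes) and 7 in control females (6.11% of all genes), 3 higher in ASC2 and 4 lower in each. In control males ASC2 had more Tnfaip6 (2.86 ± 0.36, adjusted p = 4.1e-08), Ptgs2, a prostaglandin synthase gene (2.90 ± 0.54, adjusted p = 0.00013) and Cxcl1 (2.74 ± 0.47, adjusted p = 3.5e-05), and less Steap4 (-2.85 ± 0.34, adjusted p = 6.7e-09), all 4 without overlap. In control females Tnfaip6 (2.13 ± 0.34) and Cxcl1 (2.15 ± 0.46) were likewise higher in ASC2, and Cxcl5 (-2.88 ± 0.52) and Lcn2, a lipocalin gene (-2.83 ± 0.81), were lower, all with an adjusted p of at most 0.02. In castrated males 6 were higher and 4 lower in ASC2, where 9.09% of all genes were called. In control males 3 higher and 2 lower calls were made in sex-matching libraries and 3 higher and 3 lower in those without Tcf21, whereas in control females no call was made in either subset, where 2 ASC1 libraries remained.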

How the data were processed

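The measured material was RNA of sorted ASC in 58 libraries. Per the labels and the study's methods, the authors quantified reads with Salmon 1.9.0 on transcripts of GRCm39, dropped libraries in which under 8500 genes were detected, and deposited Salmon's estimated counts unnormalized; 15.0% of the values above 0 were not whole. Counts were rounded and tested in R 4.3.3 with edgeR 4.0.16 (TMM scaling, quasi-likelihood test). The 12464 genes tested had 5 reads or more in over 3 libraries. The model had 1 term for each of the 8 groups, and p-values were adjusted over all genes by Benjamini-Hochberg (threshold 0.05). Levels are CPM on TMM-scaled library sizes. SE was derived from the fold change and its F statistic. Per-kilobase levels divide by the exon length of the older GRCm38 annotation, the build of which gave no other coordinates than the promoters shown.

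The members, gene lists and tests were chosen with earlier results of these data known, and the separation by Tcf21 was added after seeing the data. Named were all members in every group, up to 4 genes of each list per comparison with the largest changes past the threshold, and the 5 genes most correlated with Il1r2; Nfkbia, Il18r1 and Il1rl2 in further comparisons were chosen after their values were seen. Replicates are libraries with separate letters, presumably separate mice. Same-lettered libraries did not deviate together (26 pairs, r from -0.226 to 0.320, median 0.027), so no block was used. Within groups, however, Tcf21 went by runs of letters. Replicates B to D of control male ASC1 and I to L of ovariectomized ASC2 held it, unlike the later letters. In both castrated populations I and J differed from K to P. The SE and p-values take libraries of a group as independent. Controls were letters A to H and operated mice I to P, so surgery cannot be told apart from these letters. Total counts of 106566 to 1421547 limit the precision of genes under about 5 CPM, and counting intervals cover counting error only. Alternatives were RLE size factors, no filter, only the groups compared, limma 3.58.1 voom, DESeq2 1.42.0, replicate blocks, each ovariectomized ASC1 library left out, and subsets by sex transcripts and Tcf21. The method was tested on simulated data.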

Additional observations from a re-analysis of the deposited data

Results flagged for a closer look

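In 51 combinations of member and group with at least 10 reads, 5 had a library far from the others by Dixon's criterion, where chance alone gives about 1 in 20. For Il1r2 these were control female ASC1 replicate A with 45.9 CPM (group median 21.7 CPM) and control female ASC2 replicate E with 643 CPM (median 174 CPM). Control female ASC2 replicate E was also far from its group for Il33, with 394 CPM against a median of 123 CPM, and it held both Xist and Y-chromosome transcripts. The other two were control male ASC2 replicate F for Il33 with 303.2 CPM (median 145 CPM) and castrated male ASC1 replicate I for Il1rn with 66.4 CPM (median 19.7 CPM), both of which went against their sex label.

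Effects that differed between ASC2 and ASC1 by the edgeR interaction contrast were found in 6 cases among the members other than Il1r2. The castration effect on Il1rn differed by 2.46 on the log2 scale (adjusted p = 0.0047). The ovariectomy effect, ASC2 minus ASC1, was 2.71 for Il1rap (adjusted p = 5.5e-05), 4.09 for Il1rn (adjusted p = 0.0025), 8.98 for Il1rl1 (adjusted p = 0.0045), -1.92 for Il33 (adjusted p = 0.048) and -4.10 for Il18 (adjusted p = 9.1e-06). The values of Il1rn and Il1rl1 under ovariectomy depend on 3 and 1 reads in the ovariectomized ASC1 libraries, so their size is no bound.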

How the results depend on the processing

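Of 434 values under alternatives, 387 kept their direction and their side of the threshold or stayed within the spread of replicates. The log2 fold changes of Il1r2 kept their sign and stayed within 1 SD of replicates in all alternatives run, with the exception of libraries without Tcf21, where the population value in ovariectomized females was -0.68 and the castration effect in ASC2 minus ASC1 was -0.36. In those libraries Il1rn after castration in ASC1 turned to 0.71, its difference of effects to -0.24, and Il33 between the populations of castrated males to -0.14.

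The number of the 7 tested members called changed by over 1.5 times as follows. Without Tcf21 it was 0 for castration in ASC1, for its difference of effects and for the population in castrated males, and 2 for the population in control males and in control females. With sex-matching libraries the number of members called was 0 for ovariectomy in ASC2, where 2 of all genes were called. It was 2 for sex in ASC1 (Il1rl1 and Il1rn), 1 for sex in ASC2 (Il1rn) and 2 for the population in control males. Over all genes 122, 326 and 941 were called in these comparisons. Sex and population went together with Tcf21 in those control libraries. With no count filter the number of members called was 1 for castration in ASC2 and 2 for ovariectomy in ASC2 and for the population in both controls. With limma voom it was 1 for castration in ASC2 and 2 for ovariectomy in ASC2 and for the population in control males, and with only the groups compared it was 2 for the population in both controls; the added member was Il18 for castration and otherwise Il33. The cause was not tested. Leaving out 1 ovariectomized ASC1 library gave 2 to 4 calls for ovariectomy in ASC1, 3 to 4 for the population and 2 to 5 for the difference of effects, lowest without replicate L. Same-lettered libraries did not deviate together; with the replicate block by letter the calls in the 4 population comparisons were 1, 1, 3 and 4, as without it, and with the block by presumed mouse 1, 1, 3 and 3, the lost call being Il1r1. No value could be had for castration in ASC1, the population in castrated males or the castration difference from sex-matching libraries. The shallowest library, of 106566 counts, and the 3 libraries of ovariectomized ASC1 limit what can be read for genes of few reads.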
